A study of Mus musculus with 27 samples.

Results

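The gene set described here holds 37 mouse genes of glucose uptake, glycolysis, lactate and pyruvate handling, the pentose phosphate pathway and the response to low oxygen. They were taken by their gene symbols, matched to the Ensembl identifiers of the count table, and all 37 were found among the 56691 genes of the table. A member was kept when at least 3 of the 27 libraries had counts for it, which left 36 members. Pdk4, a kinase that switches off pyruvate dehydrogenase, had counts in 2 libraries and was not tested. The 36 kept members also passed the filter on low counts and were tested among 17573 genes. Gene positions below are those of mouse GRCm38 (mm10) in GENCODE M21.

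Glycolysis splits glucose into pyruvate in the cytosol, and lactate dehydrogenase turns pyruvate into lactate when it is not passed on to mitochondria. The pentose phosphate pathway branches off after the hexokinase step and supplies NADPH, used in antioxidant defence and by the oxidase of phagocytes, and ribose for nucleotides. HIF1A, a transcription factor that is degraded when oxygen is plentiful, binds DNA at sites with the core letters ACGTG or GCGTG and is known to raise the genes of most glycolytic enzymes, and activated macrophages and microglia are known for a turn towards glycolysis.

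The cells were microglia sorted from around the hematoma of wild-type mouse brain after intracerebral hemorrhage (ICH), made by injecting collagenase, an enzyme that breaks vessel walls. SPF mice, kept free of specific pathogens with an intact microbiota, received no other treatment, ABX mice received an antibiotic cocktail, and GF mice were germ-free. In each of the 3 conditions there were 3 libraries of ICH at day 3, 3 of ICH at day 7 and 3 of sham surgery with PBS, 27 in all. Every sham library is labelled day 7, so a comparison of ICH at day 3 with sham also differs in the day. The sort gate, the age and sex of the mice, and whether a library held the cells of 1 animal or of a pool are not given in the sources used here, so p-values measure the spread between libraries, which may be technical.

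The libraries held 41664864 to 79090595 counts and had counts for 9185 to 18408 genes. Fewer than 12000 genes were detected in 7 libraries, namely the whole GF ICH day 7 group and, with replicate numbers 1 and 2, a pair from GF sham and a pair from ABX ICH day 7. Many members stood near 0 CPM (the count level relative to library size, scaled by TMM) in 1 or more of these. In GF ICH day 7, genes of high GC content were also low against genes of low GC content: the contrast between them, in log2 units, was -2.78 to -1.68 there. In ABX ICH day 7 it was -1.05 to -0.718 and in SPF ICH day 7 -0.407 to 0.628. At day 3 it was 0.185 to 0.897 in SPF, 0.536 to 1.04 in ABX and 0.950 to 1.52 in GF. In sham it was -0.484 to 0.406 in SPF, 0.0439 to 0.328 in ABX and 0.341 to 1.17 in GF. Several results that rest on the libraries of few detected genes are given without them too, or with an adjustment for GC content. All 12 homeostatic microglia markers, P2ry12 and Tmem119 among them, reached at least 1 CPM in 1 or more libraries of every group. Their summed levels were 45937 to 101080 CPM in sham, 21926 to 50303 at day 3 and 35330.4 to 120671 at day 7. Summed monocyte markers lay at 1247 to 2214 CPM in GF ICH day 7 against 13.5 to 616 in sham, and neutrophil markers at 919.9 to 3917 against 43.0 to 895. Of the 10 neutrophil markers tested in GF day 7 against sham, 1 rose, with a median log2 fold change of 4.85, and of 12 listed Elane and Mmp9 were at 0 in that group. Of the 12 monocyte markers 6 rose and 1 fell there, with a median of 5.90.

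In sham microglia the members differed widely in level, compared here as CPM per kilobase of the principal transcript, averaged over the 9 sham libraries. Ldhb, the lactate dehydrogenase subunit of oxidative tissues, was highest at 1152 CPM per kb. Aldoa (aldolase A) followed at 411, Slc2a5 (the fructose transporter GLUT5, a known microglial gene) at 353 and Eno1 (enolase 1) at 336 CPM per kb. Taldo1 (transaldolase, of the pentose phosphate pathway), Ldha (the lactate dehydrogenase subunit of glycolytic tissues) and Pkm (pyruvate kinase) came next at 215, 144 and 116 CPM per kb. At the low end, Slc2a6 (the transporter GLUT6), Slc2a3 (the neuronal transporter GLUT3), Eno2 (the neuronal enolase) and Pdk4 were all below 1 CPM per kb. Neighbours in this order overlapped in their sham CPM in many cases: Aldoa spanned 175 to 1992, median 402 CPM and Eno1 206 to 1535, median 618 CPM.

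Promoters of 7 members whose level moved with hemorrhage in the results that follow are shown here, since members that move together invite a look at shared letters. Each is the 250 bases before the transcription start in RefSeq (GRCm38.p6), written 5′ to 3′ on the gene's strand, with ACGTG and GCGTG, read on either strand (CACGT and CACGC on the other), in capitals. Overlapping matches run together in capitals.
Ldha: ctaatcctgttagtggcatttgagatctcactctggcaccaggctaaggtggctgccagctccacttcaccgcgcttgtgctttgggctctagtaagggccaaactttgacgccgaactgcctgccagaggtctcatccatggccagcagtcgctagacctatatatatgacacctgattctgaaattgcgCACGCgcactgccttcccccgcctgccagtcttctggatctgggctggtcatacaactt
Pkm: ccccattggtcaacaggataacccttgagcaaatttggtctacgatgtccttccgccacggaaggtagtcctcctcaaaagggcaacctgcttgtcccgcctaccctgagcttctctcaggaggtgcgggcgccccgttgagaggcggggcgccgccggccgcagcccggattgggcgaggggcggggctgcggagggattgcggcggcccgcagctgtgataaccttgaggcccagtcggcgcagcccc
Slc2a6: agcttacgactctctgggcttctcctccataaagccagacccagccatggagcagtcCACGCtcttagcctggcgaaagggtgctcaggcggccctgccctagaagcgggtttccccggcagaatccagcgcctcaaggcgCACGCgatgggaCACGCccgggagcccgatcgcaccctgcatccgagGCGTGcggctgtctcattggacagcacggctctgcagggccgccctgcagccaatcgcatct
Aldoa: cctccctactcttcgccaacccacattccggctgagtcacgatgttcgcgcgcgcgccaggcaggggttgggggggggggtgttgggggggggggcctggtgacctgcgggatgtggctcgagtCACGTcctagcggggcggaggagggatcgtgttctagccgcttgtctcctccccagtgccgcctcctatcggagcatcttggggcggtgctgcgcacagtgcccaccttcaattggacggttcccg
Eno1: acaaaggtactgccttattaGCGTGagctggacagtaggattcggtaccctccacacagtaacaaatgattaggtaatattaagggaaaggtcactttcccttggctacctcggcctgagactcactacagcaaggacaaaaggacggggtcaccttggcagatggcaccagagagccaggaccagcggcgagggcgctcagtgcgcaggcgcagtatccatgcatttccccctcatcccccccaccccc
Pgk1: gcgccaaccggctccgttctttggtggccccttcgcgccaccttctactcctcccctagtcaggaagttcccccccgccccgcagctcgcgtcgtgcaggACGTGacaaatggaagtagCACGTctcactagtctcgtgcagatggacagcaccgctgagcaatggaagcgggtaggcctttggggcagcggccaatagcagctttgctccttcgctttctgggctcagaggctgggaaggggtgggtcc
Bnip3: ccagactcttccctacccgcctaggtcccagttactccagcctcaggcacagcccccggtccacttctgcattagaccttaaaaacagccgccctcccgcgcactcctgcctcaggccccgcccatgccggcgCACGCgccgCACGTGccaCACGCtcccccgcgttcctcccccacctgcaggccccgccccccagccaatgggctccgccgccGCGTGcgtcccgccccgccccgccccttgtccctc
The windows are chr7:46846832-46847081 (plus strand) for Ldha, chr9:59656326-59656575 (plus strand) for Pkm and chr2:27027999-27028248 (minus strand) for Slc2a6. They are chr7:126799255-126799504 (minus strand) for Aldoa, chr4:150236458-150236707 (plus strand) for Eno1, chrX:106186850-106187099 (plus strand) for Pgk1 and chr7:138909507-138909756 (minus strand) for Bnip3. Ldha and Eno1 each hold 1 GCGTG, Slc2a6 holds 4 GCGTG, Aldoa holds 1 ACGTG and Pgk1 2 ACGTG. Bnip3 holds 2 ACGTG and 3 GCGTG, and neither letter string is in the Pkm window. Of the 37 members, 36 had a window in the RefSeq table. Each was counted by 1 window, the nearest to the start of its principal transcript. That distance was 208 bases for Pkm and 244 for Eno1. The shares over all windows count every window, alternative starts of a gene included, so the sets compared are unlike. ACGTG was in 14 of the 36 (38.9%) against 16.6% of all 32851 windows of that length, GCGTG in 21 (58.3%) against 28.2%, and either in 30 (83.3%) against 38.6%. Member windows also had a higher median GC content, 60% against 52.4% over all windows, and both strings are rich in G and C. A match is a description of letters and not a binding site.

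At day 3 after hemorrhage, 5 members rose against sham on the average over SPF, ABX and GF, and none fell: Ldha, Pkm, Slc2a6, Eno1 and Aldoa. They belong to the end of glycolysis (Eno1, Pkm, Ldha), its middle (Aldoa) and glucose transport (Slc2a6). Over all genes tested, 1.04% rose and 0.267% fell in this comparison. Among the 1656 genes of at least 100 CPM on the mean over all 27 libraries, 3.74% rose, and of the 14 members that abundant, 4 did. That mean includes the hemorrhage libraries, so a gene can reach it through the groups compared. Gpi1, Tpi1, Hif1a and Bnip3 are among the 14 but averaged 51.5, 93.3, 82.9 and 80.1 CPM in sham. The median log2 fold change was 0.62 against -0.06 over all genes, and the average over SPF and ABX without GF called the same 5 members. GC content was 58.7% for Slc2a6, 57.7% for Pkm, 57.4% for Eno1, 57.3% for Aldoa and 51.0% for Ldha. The median of the tested members was 53.3%. Over 1649 genes of at least 100 CPM, log2 fold change and GC content had a Spearman correlation of 0.32 on this average. With the GC adjustment that correlation was -0.01, and Pkm, Slc2a6, Eno1 and Ldha were still called. The part of GC content in the rises was not tested. In the same comparison 6 of 12 homeostatic microglia markers fell, 2 of 12 monocyte markers rose, and the summed border-associated macrophage markers lay at 39.6 to 196 CPM at day 3 against 1.14 to 26.2 in sham; their part in the member changes was not tested. Fewer cells of a type and less RNA per cell cannot be told apart in these bulk samples.

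Taken alone, no condition gave a member past the edgeR threshold at day 3. In SPF, 10 of 36 members had an unadjusted edgeR p under 0.05 (7.26% of all genes did), DESeq2 called 5 (5.89% of all genes) and limma voom 8 (3.01%), where edgeR called 0.102% of all genes. In ABX, 9 of 36 members had an unadjusted edgeR p under 0.05 (8.27% of all genes did), DESeq2 called 2 (6.70% of all genes) and limma voom 10 (4.94%), with 0.125% of all genes called. In GF, 5 of 36 members had an unadjusted edgeR p under 0.05 (5.29% of all genes did), DESeq2 called 2 (4.61% of all genes) and limma voom 0 (0%), with 0.00569% of all genes called. Without the 7 libraries of few detected genes, which leaves the SPF and ABX day 3 comparisons with all their libraries, edgeR called 10 members in SPF, with 1.26% of all genes called, and 10 in ABX, with 1.24%. In each, 9 rose, among them Pkm, Gapdh, Slc2a6, Pgam1, Aldoa, Tpi1, Eno1 and Ldha in both, and Slc2a5 fell.

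The separation between libraries was wider than the calls. In SPF, 15 members had all 3 day 3 libraries above all 3 sham libraries and 2 had them below, where 9.18% and 6.98% of all genes did. In ABX the counts were 16 above and 1 below, against 9.74% and 10.1% of all genes, and in GF 10 above and 0 below, against 10.8% and 2.98%. Separated upwards in both SPF and ABX were 14 of the 36 members, against 4.11% of all genes: Slc2a6, Gpi1, Aldoa, Tpi1, Gapdh, Pgk1, Pgam1, Eno1, Pkm, Ldha, G6pdx, Pgd, Taldo1 and Hif1a. Among the genes of at least 100 CPM that share was 11.8%, and 10 of the 14 abundant members had it. Gpi1, Tpi1 and Hif1a, among these 10, reach 100 CPM only with the hemorrhage libraries in the mean. Separated downwards in both was Slc2a5 alone, against 2.29% of all genes. Slc2a6, Gpi1, Tpi1, Eno1, Pkm and Ldha were also separated in GF.

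**Figure D1:**
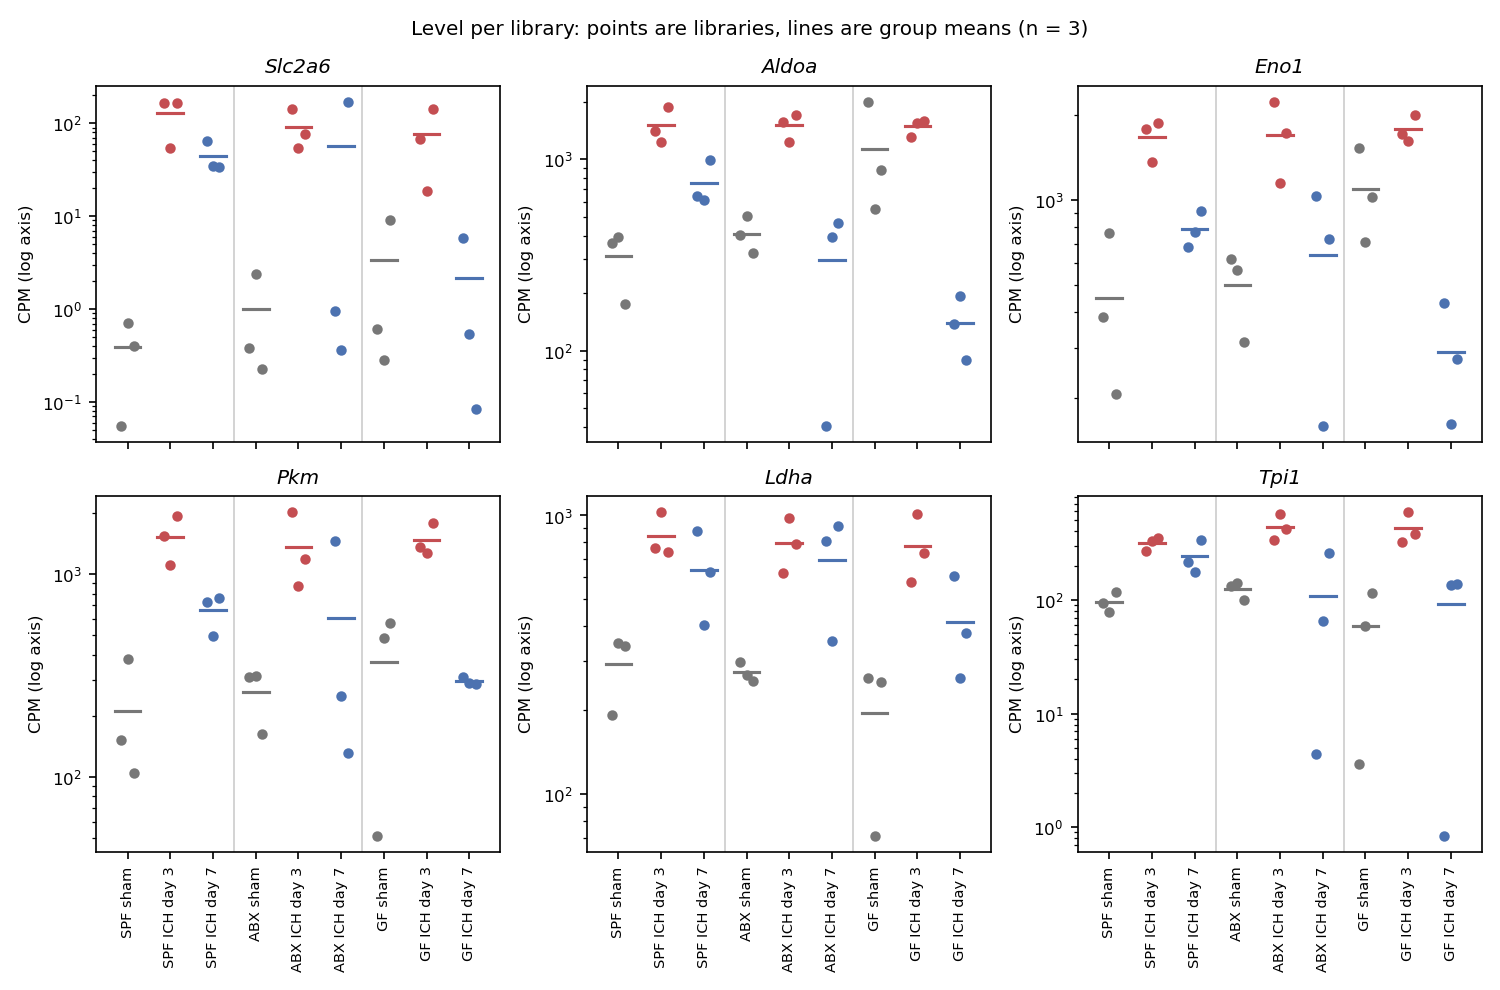
Level of 6 members in each library, in CPM on a log axis, for the 9 groups; points are libraries and lines are group means. In SPF and ABX the day 3 points of all 6 genes lie above the sham points; Slc2a6 was below 3 CPM in every SPF and ABX sham library and at 53.8 CPM or more in their day 3 libraries.

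Of the 4 glucose transporters, Slc2a6 rose at day 3 and the other 3 did not pass the test. Slc2a6, which encodes GLUT6, an intracellular transporter known from lysosomes of activated macrophages (chr2:27021363-27027998, minus strand), stood at 0.0558, 0.704 and 0.402 CPM in SPF sham and at 167, 54.0 and 166 CPM at day 3. In ABX it stood at 0.378, 2.38 and 0.227 CPM in sham and 144, 53.8 and 76.6 at day 3, and in GF at 0.604, 0.283 and 9.22 and then 68.6, 18.7 and 141 CPM. Each day 3 library was above every sham library of its condition, GF sham replicate 3 being the highest sham. The average log2 fold change was 6.46 ± 1.19 SE, edgeR adjusted p = 0.00414. Slc2a5 (GLUT5, chr4:150119283-150144169, plus strand) stood at 972, 1646 and 829.7 CPM in SPF sham against 353, 289 and 165 at day 3, and at 1328, 1093 and 1200.0 against 471, 268 and 157 CPM in ABX. Its day 3 levels were the lower ones and did not overlap with sham, while the GF libraries did (1229.5, 787 and 936 against 876, 353 and 577 CPM), and the average log2 fold change of -1.61 ± 0.50 SE, edgeR adjusted p = 0.126, missed the threshold. Without the 7 libraries of few detected genes Slc2a5 passed it within SPF and within ABX. Slc2a1, the GLUT1 transporter that HIF1A is known to raise, spanned 0.483 to 75.8, median 48.8 CPM in sham and 21.6 to 90.8, median 63.3 at day 3. Slc2a3 stayed at or below 7.52 CPM in every library.

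Hexokinases, which trap glucose in the cell as its phosphate, and phosphoglucomutases, which link glucose phosphates to glycogen, gave no call at day 3 (5 tested, median log2 fold change -0.39). Hk2, the isozyme that HIF1A is known to raise, spanned 10.7 to 114, median 25.7 CPM in sham and 13.8 to 46.5, median 24.3 CPM at day 3. Hk3, the myeloid isozyme, spanned 8.70 to 384, median 28.7 and 11.8 to 42.9, median 35.4 CPM, and Hk1 was at 0 in several libraries of both. Pgm1 spanned 1.53 to 133, median 36.9 CPM in sham and 55.2 to 114, median 85.0 at day 3. Over all conditions the sham and day 3 ranges of each of these members overlapped. Within a condition, Hk2 was separated upwards from sham in ABX and Pgm1 in GF.

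In upper glycolysis, from glucose 6-phosphate to the triose phosphates, Aldoa rose and the other 8 tested members did not pass. Aldoa, which cleaves fructose bisphosphate (chr7:126795234-126800751, minus strand), stood at 364, 395 and 175 CPM in SPF sham and 1405, 1235 and 1883 at day 3. In ABX it stood at 402, 506 and 323 CPM in sham and 1574, 1228 and 1718 CPM at day 3. Both conditions were clear of overlap, while in GF the sham library of 1992 CPM lay above all day 3 libraries (1310.2, 1559.9 and 1591 CPM). The average log2 fold change was 1.51 ± 0.33 SE, edgeR adjusted p = 0.0178. This call was lost when 1 of 4 libraries was left out (adjusted p = 0.0660 without SPF sham replicate 3, 0.050028 without SPF ICH day 3 replicate 3, 0.0549 without ABX sham replicate 1 and 0.0659 without ABX sham replicate 3) and with the GC adjustment, which gave 1.20, adjusted p = 0.0924. Tpi1 (triose phosphate isomerase) was higher in every day 3 library than in the sham libraries of its condition, 3.63 to 139.7, median 99.7 CPM in sham and 267 to 591, median 349 at day 3, with a log2 fold change of 2.13 ± 0.66 SE, edgeR adjusted p = 0.121. Gpi1 (glucose phosphate isomerase) spanned 2.26 to 92.9, median 66.5 CPM in sham and 98.9 to 221, median 169.8 at day 3. The regulatory genes Pfkfb3 and Pfkfb4, whose products set the level of fructose 2,6-bisphosphate, overlapped between sham and day 3: Pfkfb3 spanned 3.79 to 374, median 161 CPM and then 191 to 369, median 242 CPM. Among phosphofructokinases, Pfkl (liver type) spanned 28.2 to 444, median 52.0 CPM in sham and 25.2 to 189.7, median 94.3 at day 3. Pfkm (muscle type) stayed at or below 12.6 CPM in all libraries.

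Lower glycolysis and lactate production held 3 of the 5 day 3 calls, and its 8 members had a median log2 fold change of 1.57. Pkm, pyruvate kinase (chr9:59656368-59679375, plus strand), stood at 152, 379 and 104 CPM in SPF sham and 1535, 1103 and 1923 at day 3. In ABX it stood at 311, 315 and 163 CPM in sham and 2018, 878 and 1182 CPM at day 3, and in GF at 51.2, 486 and 573 CPM in sham and 1368, 1273 and 1792 CPM at day 3. No day 3 library overlapped with sham in any condition, and the average log2 fold change was 2.40 ± 0.43 SE, edgeR adjusted p = 0.00266. Ldha (chr7:46841475-46855627, plus strand) stood at 193, 349 and 340.1 CPM in SPF sham and 767, 1027 and 742 at day 3. In ABX it stood at 299, 268 and 255 CPM in sham and 622, 980.3 and 788 CPM at day 3, and in GF at 261, 71.1 and 253 CPM in sham and 578, 1011 and 734 CPM at day 3. These groups did not overlap either, and the log2 fold change of 1.68 ± 0.28 SE, edgeR adjusted p = 0.000967, had the smallest adjusted p of the members. Eno1, which makes phosphoenolpyruvate (chr4:150236721-150248879, plus strand), stood at 384, 764 and 206 CPM in SPF sham and 1782, 1366 and 1881 at day 3. In ABX it stood at 618, 567 and 314 CPM in sham and 2222, 1146 and 1730.2 CPM at day 3, and in GF at 1535, 709 and 1029 CPM in sham and 1715, 1619 and 2002 CPM at day 3. Again no day 3 library overlapped with sham, though in GF the gap was narrow, and the log2 fold change was 1.45 ± 0.30 SE, edgeR adjusted p = 0.0126.

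Pgk1 (phosphoglycerate kinase) and Pgam1 (phosphoglycerate mutase), the steps between, were above sham in all SPF and ABX day 3 libraries but did not pass on the average. Pgk1 spanned 29.6 to 329, median 85.7 CPM in sham and 171 to 346, median 227 at day 3. Pgam1 spanned 66.7 to 609, median 123 and 324 to 410.4, median 352 CPM. For both, GF sham replicate 1 was the only sham library above the lowest day 3 library. Without the 7 libraries of few detected genes GF sham keeps replicate 3 alone, so member calls on the day 3 average are not given for that fit. Within SPF and within ABX, which keep all their libraries in this comparison, it called Pgam1 in both and Pgk1 in SPF only. Eno2 had counts in 9 libraries and reached 8.42 CPM at most. Ldhb spanned 814 to 2494, median 1418 CPM in sham and 919 to 1919, median 1271 at day 3, a range that overlapped fully.

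Gapdh, the classic reference gene, needs its own reading. Its row held 47417 counts over all libraries, whereas 177 other genes of near-identical sequence, 168 of them pseudogenes, held 1878585, or 97.5% of the total. The row alone spanned 4.56 to 45.5, median 11.6 CPM in sham and 37.7 to 91.6, median 48.5 at day 3, with a log2 fold change of 2.10 ± 0.54 SE, edgeR adjusted p = 0.0511, just outside the threshold. Summed over all 178 genes, the family stood at 457, 657 and 243 CPM in SPF sham and 1888, 1623 and 2313 at day 3. It stood at 542, 523 and 327 CPM in sham and 2022, 2453 and 2878 CPM at day 3 in ABX, and at 2462, 624 and 611 CPM in sham and 1839, 2505 and 2092 CPM at day 3 in GF. SPF and ABX did not overlap, while GF sham replicate 1 lay within the GF day 3 range. How reads that match Gapdh and its copies alike were assigned is not given in the sources used here, so the value of Gapdh is uncertain. For Eno1, 14.3% of the counts summed over it and its similar genes were assigned to the similar genes, chiefly Eno1b. The shares were 8.5% for Pgm1, all in Itgb3bp, 4.83% for Pgam1 and 4.31% for Pgk1. By library the Pgk1 row held 56.0% to 97.4% of its family. In GF sham replicate 2 it stood at 29.6 CPM and the family at 52.9 CPM. Pitrm1, whose transcript matches part of that of Pfkp, held 55.8% of the pair's counts. These shares are of assigned counts, and how many reads fit both genes was not measured.

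Pyruvate dehydrogenase, the gate to the mitochondria, and the kinases that close it gave no call at day 3 (3 tested, median log2 fold change 0.09). Pdk1, a known HIF1A target, spanned 20.6 to 154, median 60.3 CPM in sham and 34.4 to 104, median 62.3 at day 3. Pdha1, the catalytic subunit, spanned 0.349 to 110.0, median 51.0 and 31.8 to 83.5, median 59.8 CPM.

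Pentose phosphate genes gave no call on the day 3 average (4 tested, median log2 fold change 0.73), but G6pdx, Pgd and Taldo1 were above sham in every SPF and ABX day 3 library. G6pdx, the entry enzyme, stood at 32.0, 116 and 16.5 CPM in SPF sham and 119.8, 207 and 145 at day 3, and at 29.3, 57.7 and 39.0 CPM in sham and 149, 124 and 64.9 CPM at day 3 in ABX. Pgd, the next NADPH-producing enzyme, stood at 78.9, 33.6 and 34.6 CPM in sham and 136, 107 and 193 CPM at day 3 in SPF, and at 46.4, 77.2 and 25.9 CPM in sham and 137, 96.6 and 124 CPM at day 3 in ABX. GF sham overlapped with GF day 3 for both. Tkt (transketolase) spanned 2.67 to 471, median 39.3 CPM in sham and 40.050 to 199, median 76.6 at day 3.

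Of the hypoxia members, none passed at day 3. Hif1a (chr12:73901375-73947530, plus strand) stood at 41.4, 96.9 and 64.7 CPM in SPF sham and 119, 107 and 103 at day 3, and at 65.3, 42.7 and 27.2 CPM in sham and 81.4, 189 and 151 CPM at day 3 in ABX, with no overlap. Bnip3, a mitophagy receptor and known HIF1A target, spanned 4.27 to 122, median 89.9 CPM in sham and 54.3 to 219, median 151 at day 3. Egln3, a prolyl hydroxylase that HIF1A is known to raise, spanned 0 to 16.7, median 0.140 and 0.0610 to 51.1, median 23.2 CPM. These counts concern the RNA of Hif1a, whose protein is controlled mainly by its stability.

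**Figure D2:**
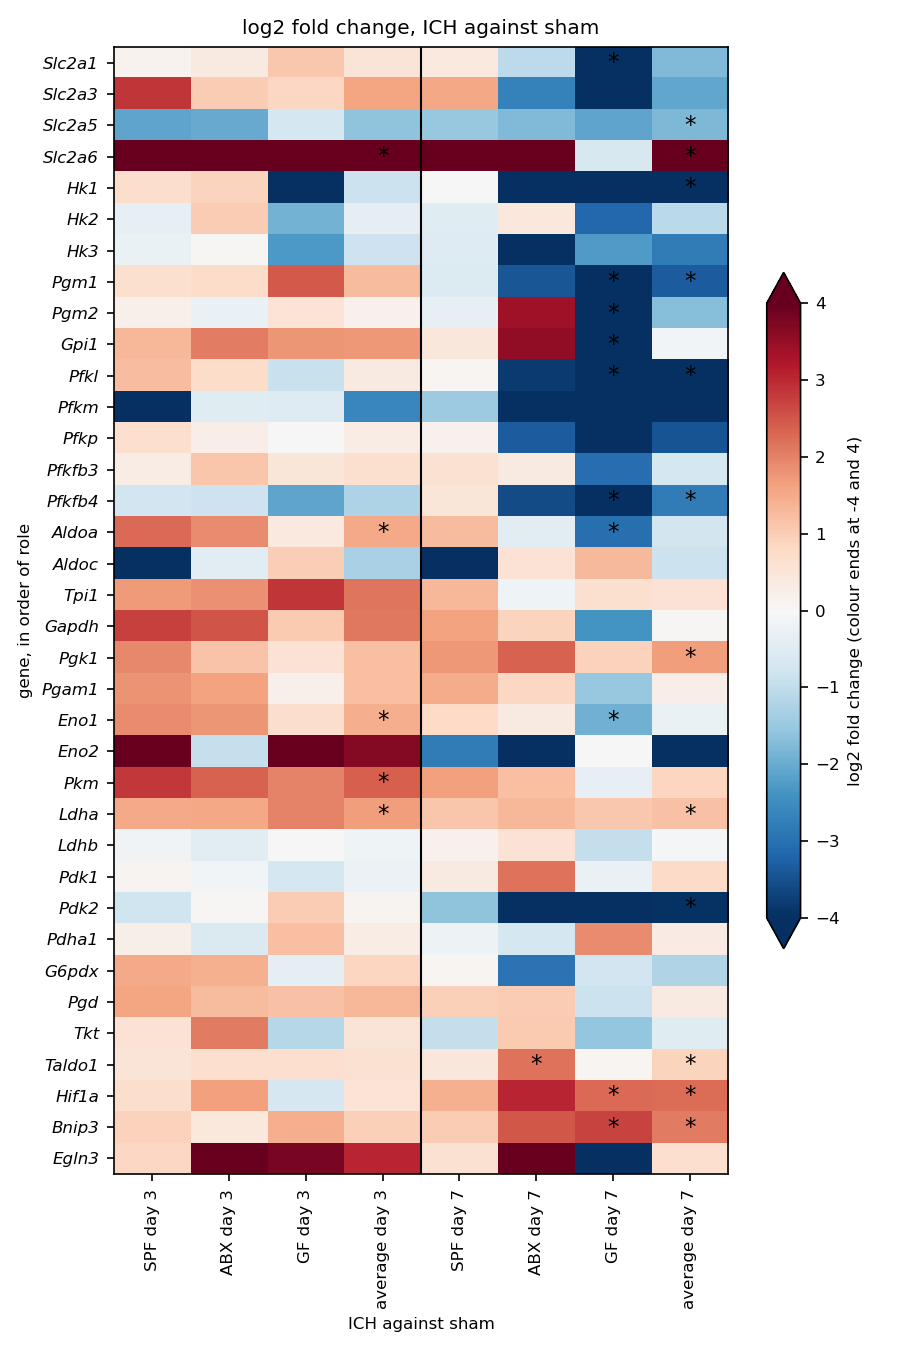
Log2 fold changes of the 36 tested members (vertical, by role) against sham at day 3 and day 7 in SPF, ABX, GF and on their average (horizontal); the colour scale ends at -4 and 4, and a star marks an edgeR adjusted p under 0.05. The day 3 average has 5 stars, all higher, the day 7 average has 6 higher and 6 lower, and GF day 7 has 2 higher and 8 lower.

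Isozyme shares compare members within 1 library, as a percent of counts per kilobase summed over the isozymes, and 14 such differences were tested with a two-sided exact permutation test within conditions, 8000 arrangements, whose smallest possible p is 0.00025. Ldhb made up 85.5, 85.9 and 85.0% of lactate dehydrogenase counts in SPF sham, 64.0, 62.3 and 69.4% at day 3 and 70.3, 80.6 and 76.8% at day 7. In ABX it made up 89.2, 91.6 and 86.8% in sham, 75.6, 67.9 and 61.2% at day 3 and 82.2, 89.5 and 80.3% at day 7. In GF it made up 85.9, 93.9 and 93.0% in sham, 81.8, 63.7 and 70.1% at day 3 and 56.0, 77.6 and 79.4% at day 7. All 9 sham libraries lay above all 9 day 3 libraries. The mean difference from sham was -20.1 percentage points at day 3 (exact permutation p = 0.000250, adjusted over the 14 tests 0.00175) and -11.6 points at day 7 (exact permutation p = 0.000750, adjusted 0.00350), so Ldhb remained the larger part of the pair in every library while its share fell.

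Slc2a5 made up 98.2, 96.3 and 98.0% of the 4 transporters' counts in SPF sham and 55.3, 74.1 and 36.0% at day 3. In ABX it made up 95.7, 93.4 and 98.2% in sham and 60.9, 65.6 and 49.1% at day 3, and in GF 99.8, 92.4 and 93.4% in sham and 82.5, 77.5 and 66.0% at day 3. No sham library was below 92.4% and no day 3 library above 82.5%, and the mean difference was -33.1 points (exact permutation p = 0.000250, adjusted 0.00175). At day 7 the difference was -19.2 points (exact permutation p = 0.0115, adjusted 0.0322). It was -41.2 points without the 7 libraries of few detected genes, where the GF condition falls out. ABX then keeps 1 day 7 library, replicate 3, at 35.0% against a sham mean of 95.8%. In SPF the mean share was 97.5% in sham and 75.9% at day 7. When 1 library at a time was left out, the day 7 difference ranged from -24.8 to -14.0 points and its adjusted exact permutation p from 0.00700 to 0.102. The Aldoc share of aldolase was 5.66 points lower at day 3 on the average over conditions (exact permutation, adjusted p = 0.0158). Leaving out any 1 SPF ICH day 3 library ended this (exact permutation, adjusted p up to 0.229). In SPF the mean share went from 14.9% in sham, with 1 library at 30.7%, to 0.197% at day 3. It went from 2.99% to 0.638% in ABX and from 0.426% to 0.542% in GF, where it did not fall. Summed astrocyte markers lay at 180 to 558 CPM in sham and 63.4 to 152 at day 3, and their part was not tested. At day 7 the difference in the Aldoc share was -3.14 points (adjusted p = 0.636, exact permutation). The shares of Hk2, Pfkp, Eno2 and Pdk4 did not pass: Hk2 differed by -0.740 points at day 3 and 29.9 at day 7 (exact permutation, adjusted p = 0.933 and 0.152).

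**Figure D3:**
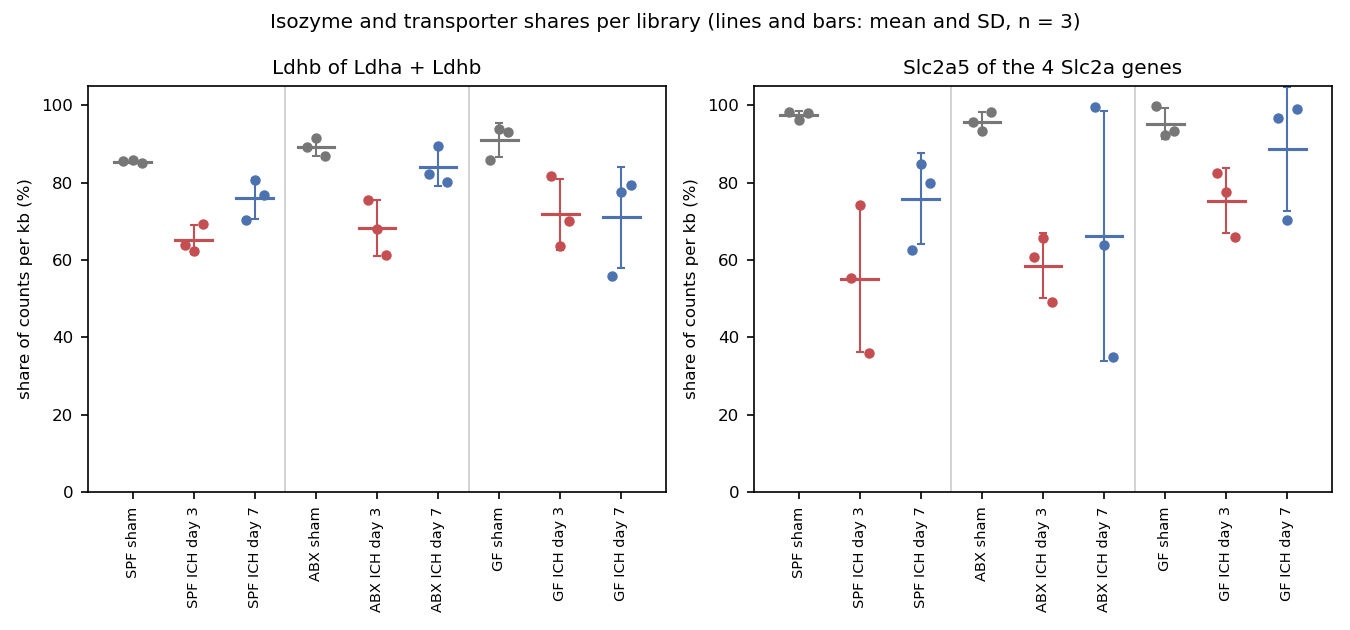
Share of Ldhb in Ldha and Ldhb together, and of Slc2a5 in the 4 glucose transporters, in percent of counts per kilobase, for each library of the 9 groups; points are libraries and lines with bars are means and SD. The Ldhb share was 85.0% to 93.9% in sham and 61.2% to 81.8% at day 3.

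At day 7, 6 members rose and 6 fell on the average over conditions: Hif1a, Bnip3, Ldha, Pgk1, Slc2a6 and Taldo1 rose, and Pfkl, Pgm1, Pfkfb4, Slc2a5, Pdk2 and Hk1 fell. Over all genes tested, 3.72% rose and 16.5% fell, and the median gene had a log2 fold change of -1.24 against -0.58 for the members. Among the 1656 genes of at least 100 CPM, 22.8% rose and 7.55% fell, and of the 14 abundant members 5 rose and 1 fell. Hif1a and Bnip3, among these 5, reach 100 CPM only with the hemorrhage libraries in the mean. The share of members that fell, 6 of 36, was close to that of all genes. DESeq2's size factors in the edgeR fit gave 5 higher and 9 lower members, with 23.9% of all genes called. DESeq2 gave 5 and 15, with 42.3% of all genes called, and the GC adjustment 7 and 2, with 17.04%. Without GF, the average over SPF and ABX called 3 members, Hif1a, Pgk1 and Slc2a6, all higher, and 0.711% of all genes. In the day 7 average over the 3 conditions 6 of 12 monocyte markers and 4 of 8 border-associated macrophage markers rose, and of 12 homeostatic microglia markers 4 fell and 1 rose. Their part in the member changes was not tested.

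Hif1a stood at 265, 125 and 150.4 CPM at day 7 in SPF, above its 41.4, 96.9 and 64.7 CPM in sham. In ABX it stood at 584, 319.7 and 214 against 65.3, 42.7 and 27.2 CPM, and in GF at 279, 1117 and 573 against 333, 32.9 and 41.7 CPM. SPF and ABX did not overlap with sham, while in GF the sham library of 333 CPM did. The average log2 fold change was 2.24 ± 0.43 SE, edgeR adjusted p = 0.00139. Bnip3 (chr7:138890836-138909519, minus strand) stood at 232, 123 and 138 CPM in SPF, 648, 433 and 629 in ABX and 182, 659 and 275 in GF at day 7. Its sham levels were 64.3, 65.3 and 113 CPM in SPF, 122, 95.3 and 89.9 in ABX and 4.27, 91.2 and 75.9 in GF, each below every day 7 library of its condition, and the log2 fold change was 2.07 ± 0.42 SE, edgeR adjusted p = 0.00254. Both genes are low in GC content (41.3% and 41.6%, the lowest of the members), and both were also called with the GC adjustment.

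In lower glycolysis at day 7, Ldha and Pgk1 rose. Ldha stood at 876, 406 and 628 CPM in SPF, 811, 354 and 920.2 in ABX and 607, 261 and 380.2 in GF, with a log2 fold change of 1.18 ± 0.27 SE, edgeR adjusted p = 0.00563. Pgk1 (chrX:106187100-106203699, plus strand) stood at 373, 104 and 169 CPM in SPF, 823, 209 and 786 in ABX and 443, 171 and 237 in GF. Its sham levels were 56.7, 64.0 and 71.9 CPM in SPF, 143, 122 and 87.0 in ABX and 329, 29.6 and 85.7 in GF, with a log2 fold change of 1.68 ± 0.39 SE, edgeR adjusted p = 0.00609. Both were separated from sham in SPF and ABX. Pkm, Eno1 and Aldoa, called at day 3, were not called at day 7, with log2 fold changes of 0.85 ± 0.41, -0.25 ± 0.30 and -0.74 ± 0.32 (edgeR adjusted p = 0.136, 0.625 and 0.101). In SPF alone, their day 7 levels lay above sham in all libraries of Pkm (726, 497 and 766 CPM) and Aldoa (640.5, 616 and 995 CPM), and below all day 3 libraries.

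Taldo1 stood at 506, 248 and 367 CPM in SPF, 2087, 490.5 and 731 in ABX and 309.6, 295 and 275 in GF at day 7, and at 95.1 to 419, median 274 CPM over the 9 sham libraries. Its log2 fold change was 0.91 ± 0.29 SE, edgeR adjusted p = 0.0310, and in ABX alone it was 2.17 ± 0.51 SE, edgeR adjusted p = 0.0409. The average call was lost in 8 of 27 fits that each left out 1 library (adjusted p up to 0.0984), and the ABX call in 19 of 27 (up to 0.312). Slc2a6 stood at 63.8, 34.9 and 34.1 CPM in SPF, 0.948, 0.361 and 169 in ABX and 5.90, 0.545 and 0.0841 in GF at day 7. Its log2 fold change of 4.01 ± 1.06 SE, edgeR adjusted p = 0.0128, rested on ABX ICH day 7 replicate 3: without it the value was 1.86 (adjusted p = 0.101). In SPF every day 7 library of Slc2a6 was above sham, and all but 1 were below every day 3 library.

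Of the members that fell at day 7, Pfkl and Pgm1 were low in every ABX and GF library and near their sham level in SPF. Pfkl, the liver phosphofructokinase, stood at 18.6, 78.2 and 62.2 CPM in SPF against 47.4, 68.1 and 34.0 in its sham, but at 0.996, 0.613 and 8.37 CPM in ABX and 0, 0.865 and 0.0421 in GF. Its average log2 fold change was -4.34 ± 0.80 SE, edgeR adjusted p = 0.00107. Pgm1 (41.1, 40.2 and 38.7 CPM in SPF, 1.33, 0.577 and 10.7 in ABX, 0.105, 0.451 and 0.231 in GF) had -3.31 ± 0.71 SE, edgeR adjusted p = 0.00365. Its sham levels were 57.1, 40.5 and 36.9 CPM in ABX and 1.53, 1.94 and 46.1 in GF, where replicates 1 and 2 were already low in sham. Pfkfb4 had -2.80 ± 0.77 SE, edgeR adjusted p = 0.0162, Pdk2 (a pyruvate dehydrogenase kinase) -3.94 ± 1.29 SE, edgeR adjusted p = 0.0352, and Hk1 (hexokinase 1) -5.57 ± 1.97 SE, edgeR adjusted p = 0.0471. The Pdk2 and Hk1 calls were lost in 12 and 20 of 27 fits without 1 library. Slc2a5 was lower than sham in every day 7 library of each condition (205, 632 and 358 CPM in SPF, 803, 114 and 139 in ABX, 256, 4.23 and 429 in GF), with a log2 fold change of -1.80 ± 0.50 SE, edgeR adjusted p = 0.0174. With the GC adjustment Pfkl (log2 fold change -3.39, adjusted p = 0.00615) and Pgm1 (-2.72, adjusted p = 0.0128) were still called and Slc2a5 had -1.24, adjusted p = 0.0712. The ABX and GF day 7 libraries of few detected genes were among the lowest for these members. Over 1649 abundant genes, log2 fold change and GC content had a Spearman correlation of -0.28 in ABX day 7 and -0.44 on the day 7 average. The part of detection and of GC content in the falls was not tested.

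**Figure D4:**
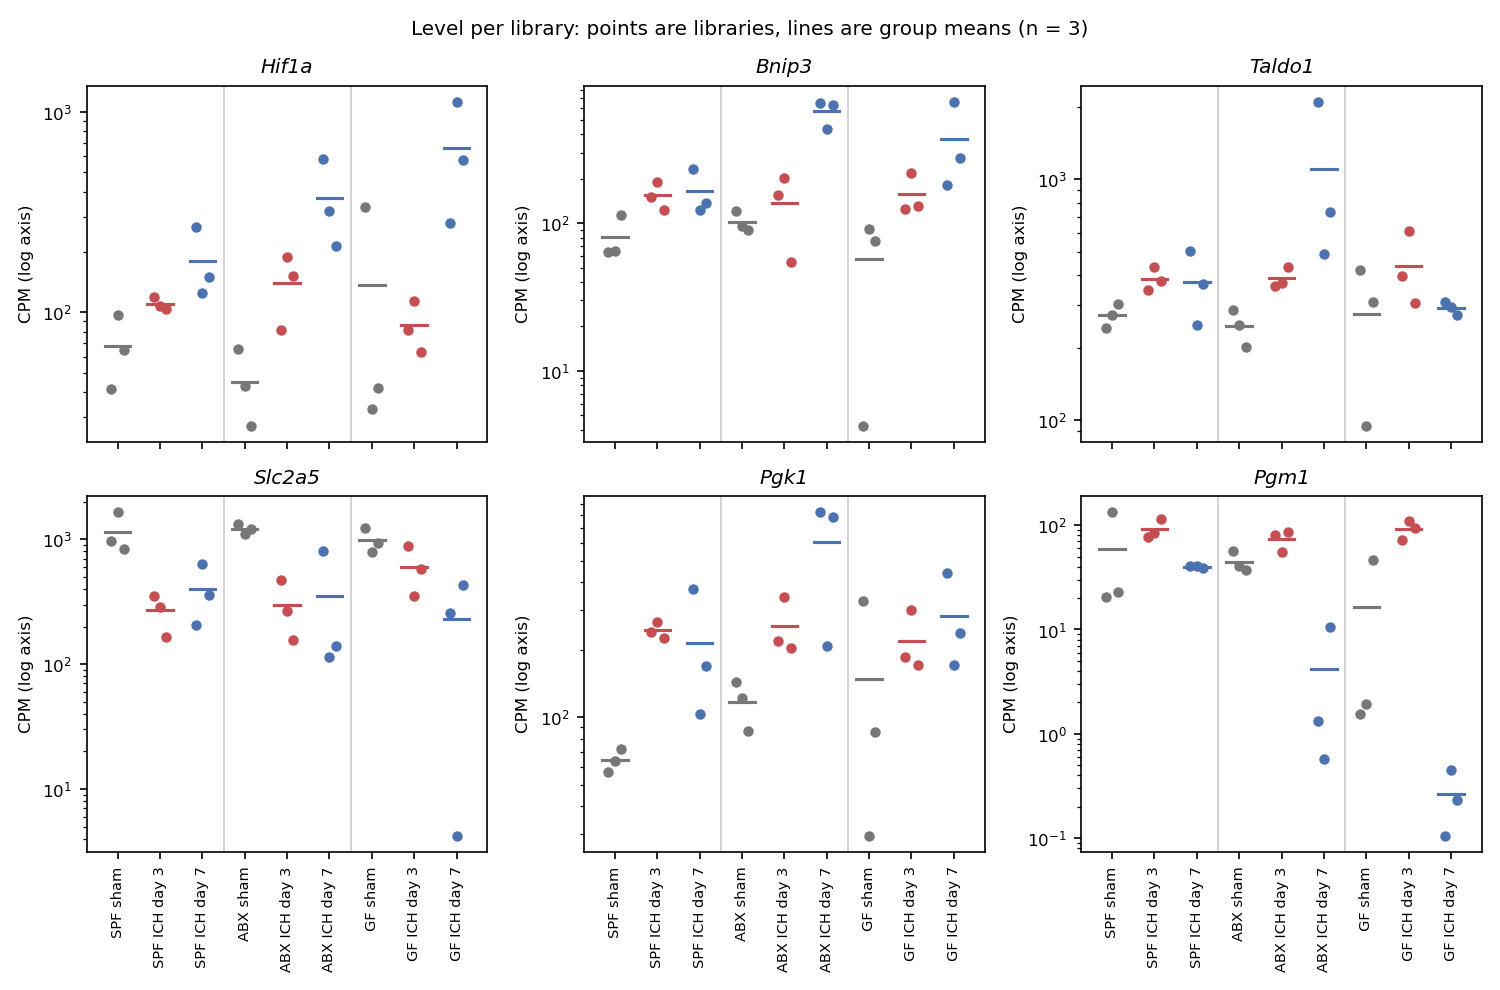
Level of Hif1a, Bnip3, Taldo1, Slc2a5, Pgk1 and Pgm1 in each library, in CPM on a log axis, for the 9 groups; points are libraries and lines are group means. Bnip3 lies above sham and Slc2a5 below sham in every day 7 library of each condition, and Pgm1 is at or below 0.451 CPM in GF ICH day 7.

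By condition, no member was called at day 7 in SPF, where 5 of 36 members had an unadjusted edgeR p under 0.05 (5.01% of all genes did), DESeq2 called 1 (4.38% of all genes) and limma voom 0 (0.842%), with 0.0797% of all genes called. In SPF, 10 members were separated upwards from sham and 2 downwards, against 5.94% and 4.62% of all genes. In ABX, Taldo1 was the 1 member called, against 0.734% of all genes higher and 0.211% lower. There 7 members were separated upwards and 8 downwards, against 7.8% and 22.4% of all genes. Pgk1, Ldha, Hif1a and Bnip3 were separated upwards in both SPF and ABX (1.29% of all genes were), and Slc2a5 downwards (1.56%). In GF, 1 member was separated upwards and 10 downwards, against 5.34% and 11.6% of all genes.

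GF ICH day 7 gave the most calls of the 6 comparisons with sham within a condition: Hif1a and Bnip3 rose, and Pfkl, Aldoa, Pgm2, Pgm1, Eno1, Pfkfb4, Gpi1 and Slc2a1 fell. Among all genes 1.7% rose and 12.7% fell, and the median log2 fold change was -2.01 against -2.10 over all genes, and 8 of the 36 members fell. Aldoa stood at 137, 194 and 89.0 CPM against 1992, 553 and 876 in GF sham (log2 fold change -3.03 ± 0.60 SE, edgeR adjusted p = 0.00225). Eno1 stood at 432, 161 and 273 against 1535, 709 and 1029 CPM (log2 fold change -1.92 ± 0.53 SE, edgeR adjusted p = 0.0177). Gpi1 stood at 0.337, 6.90 and 0.168 against 2.26, 68.2 and 82.8 CPM and Slc2a1 at 0.0842, 0.959 and 3.60 against 0.483, 66.0 and 48.8 CPM, both with 1 sham library as low as the day 7 libraries. Pgm1 stood at 0.105, 0.451 and 0.231 against 1.53, 1.94 and 46.1 CPM, so GF sham replicates 1 and 2 were already low. Pgm2 was at 0 in 2 of the 3 GF day 7 libraries and Pfkl in 1, and both were under 1 CPM in all 3. The size of their fitted log2 fold changes (-8.19 and -9.28) is therefore uncertain. Hif1a had 2.27 ± 0.74 SE, edgeR adjusted p = 0.0417, and Bnip3 2.70 ± 0.75 SE, edgeR adjusted p = 0.0180.

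The 8 members that fell in GF ICH day 7 had a GC content of 46.7% (Pgm2) to 57.4% (Eno1), and Hif1a and Bnip3, which rose, had 41.3% and 41.6%. Over 1649 abundant genes, GC content and log2 fold change had a Spearman correlation of -0.55, and over the 36 members -0.27, as a description across genes that share the same libraries. With an offset for GC content these correlations were 0.23 and -0.01, so that over the abundant genes the offset turned the trend rather than bringing it to 0. In the other comparisons that hold GF ICH day 7 the offset left 0.16 (day 7 average) to 0.29 (GF against SPF at day 7). Values with the offset, changes of sign included, come from an adjustment of this size. With it 5 members were called, with 11.4% of all genes. Pgm2 (-8.87, adjusted p = 0.00410), Pfkl (-6.70, adjusted p = 0.00796) and Pgm1 (-4.40, adjusted p = 0.0305) fell, and Taldo1 (1.77, adjusted p = 0.0247) and Ldha (2.00, adjusted p = 0.00777) rose. Eno1, at 57.4% GC, changed sign to 0.14, adjusted p = 0.863, and Aldoa, at 57.3%, moved to -0.74, adjusted p = 0.379. Hif1a moved to 0.38, adjusted p = 0.731 and Bnip3 to 0.77, adjusted p = 0.427. Summed monocyte and neutrophil markers were high in the same 3 libraries, and their part in these values was not tested. Calls were also lost without single libraries: Pgm1 (adjusted p = 0.105 without GF sham replicate 3), Bnip3 (0.0852 without GF ICH day 7 replicate 2), Eno1 (0.0572 without GF sham replicate 1, 0.0739 without GF ICH day 7 replicate 2 and 0.0634 without GF ICH day 7 replicate 3), Gpi1 (0.0520 without GF sham replicate 3, 0.0761 without GF ICH day 7 replicate 1 and 0.0720 without GF ICH day 7 replicate 3) and Pfkfb4 (0.126 without GF sham replicate 1, 0.0549 without GF ICH day 7 replicate 1 and 0.0614 without GF ICH day 7 replicate 2). Slc2a1 and Hif1a lost theirs in 16 and 21 of 27 such fits.

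**Figure D5:**
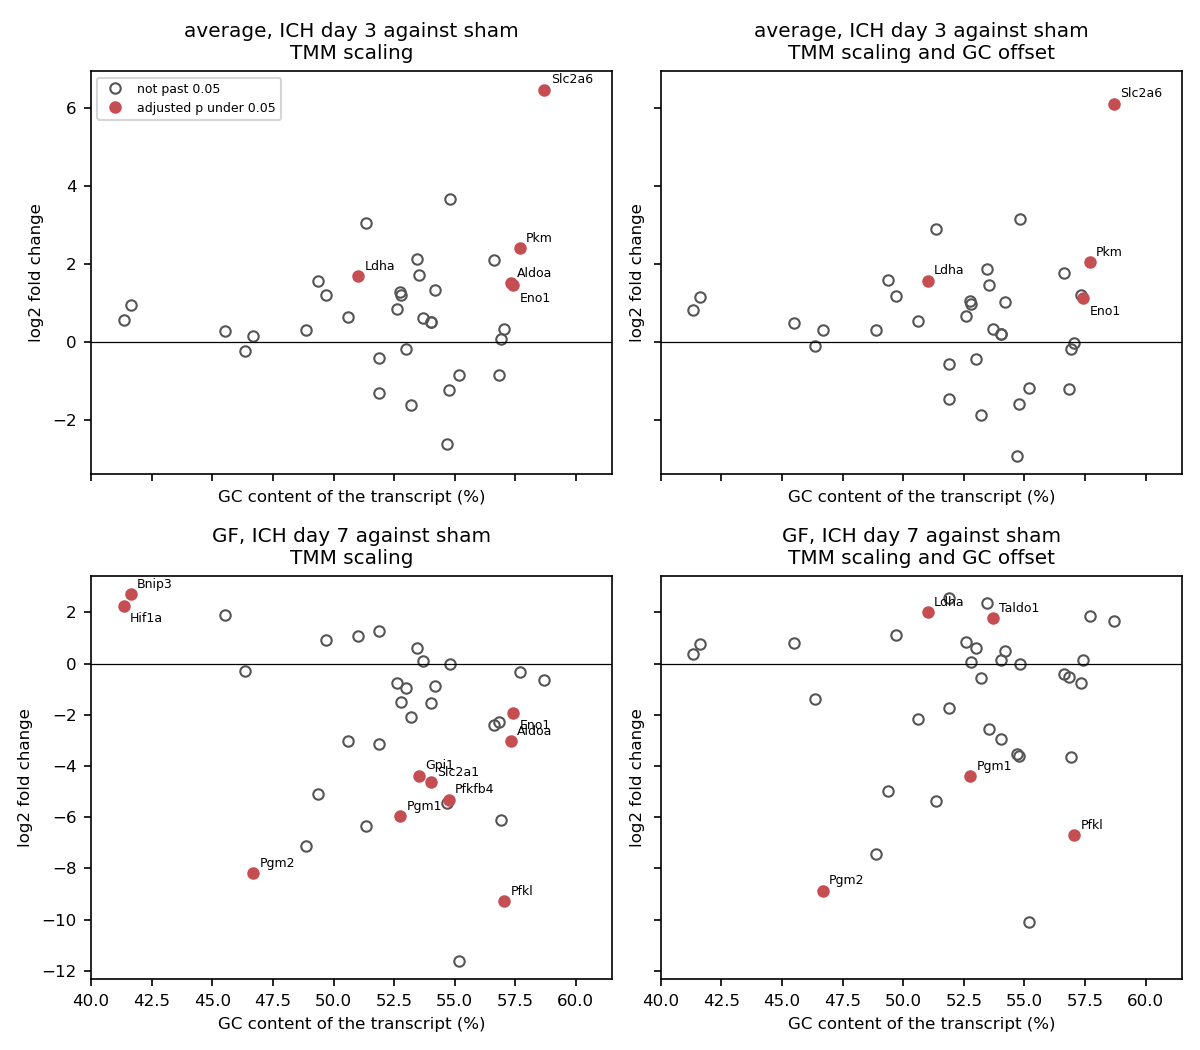
Log2 fold change (vertical) against GC content of the principal transcript in percent (horizontal) for the 36 tested members, one point each; the upper panels are the day 3 average and the lower panels GF day 7 against sham, without (left) and with (right) the GC offset. In GF day 7 Hif1a and Bnip3, at 41.3% and 41.6% GC, are high and Aldoa and Eno1, at 57.3% and 57.4%, are low before the offset.

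From day 3 to day 7, no member was called in SPF, where 1 of 36 members had an unadjusted edgeR p under 0.05 (4.09% of all genes did), DESeq2 called 0 (4.09% of all genes) and limma voom 0 (0.501%), with 0% of all genes called. None was called in ABX, where 11 of 36 members had an unadjusted edgeR p under 0.05 (20.8% of all genes did), DESeq2 called 11 (30.8% of all genes) and limma voom 1 (1.99%), with 0.728% of all genes called. In GF, Hif1a rose (2.93 ± 0.76 SE, edgeR adjusted p = 0.0131), against 1.83% of all genes, and 10 members fell, against 13.4%: Aldoa, Pgm1, Pfkl, Eno1, Pgm2, Gpi1, Slc2a1, Gapdh, Pkm and Egln3. The median log2 fold change was -2.47 against -2.49 over all genes. Pkm went from 1368, 1273 and 1792 to 309, 289.8 and 287 CPM (-2.32 ± 0.74 SE, edgeR adjusted p = 0.0355), with no overlap. The Pkm call was lost without any 1 of the 6 libraries compared (adjusted p up to 0.101), and that of Egln3 in 17 of 27 such fits. The other losses were Hif1a (adjusted p = 0.0504 without GF ICH day 3 replicate 1, 0.0591 without GF ICH day 3 replicate 3 and 0.0568 without GF ICH day 7 replicate 2), Slc2a1 (0.0571 without GF ICH day 7 replicate 1 and 0.0550 without GF ICH day 7 replicate 2) and Gapdh (0.0588 without GF ICH day 3 replicate 2, 0.0529 without GF ICH day 3 replicate 3, 0.0591 without GF ICH day 7 replicate 2 and 0.0794 without GF ICH day 7 replicate 3). With the GC offset 4 of the 11 remained past the threshold, Pgm2, Pfkl, Pgm1 and Gpi1.

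No member was called between ABX and SPF or between GF and SPF in sham or at day 3, and GF against ABX was not analysed here. In ABX against SPF sham edgeR called 0% of all genes, and 0 of 36 members had an unadjusted edgeR p under 0.05 (4.05% of all genes did), DESeq2 called 0 (3.55% of all genes) and limma voom 0 (0.615%). In ABX against SPF at day 3 it called 0%, and 1 of 36 members had an unadjusted edgeR p under 0.05 (4.89% of all genes did), DESeq2 called 1 (4.70% of all genes) and limma voom 0 (0.216%). In GF against SPF sham it called 0.00569%, and 3 of 36 members had an unadjusted edgeR p under 0.05 (6.22% of all genes did), DESeq2 called 2 (5.61% of all genes) and limma voom 0 (0%). In GF against SPF at day 3 it called 0%, and 0 of 36 members had an unadjusted edgeR p under 0.05 (3.46% of all genes did), DESeq2 called 0 (3.52% of all genes) and limma voom 0 (1.48%). The 3 members with the smallest p in GF against SPF sham were Aldoa (log2 fold change 1.87 ± 0.58), Eno1 (1.27 ± 0.52) and Pgam1 (1.62 ± 0.77), all with an adjusted p of 0.671. These missed calls do not show that the levels were equal: the standard error of a log2 difference at day 3 between GF and SPF was 0.46 for Ldha, 0.70 for Pkm and 1.63 for Slc2a6.

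At day 7, ABX against SPF gave 0 calls among the members, with 0.0854% of all genes called. There 12 of 36 members had an unadjusted edgeR p under 0.05 (19.4% of all genes did), DESeq2 called 10 (28.6% of all genes) and limma voom 1 (1.47%). GF against SPF gave 6, all lower, Pgm1, Pfkl, Pgm2, Aldoa, Gpi1 and Slc2a1, against 1.08% of all genes higher and 11.8% lower. Aldoa stood at 137, 194 and 89.0 CPM in GF and 640.5, 616 and 995 in SPF (-2.42 ± 0.59 SE, edgeR adjusted p = 0.0114), and Gpi1 at 0.337, 6.90 and 0.168 against 76.2, 86.8 and 90.5 CPM (-5.10 ± 1.296 SE, edgeR adjusted p = 0.0142), without overlap. Leaving out 1 library ended the call for Aldoa (adjusted p = 0.0571 without GF ICH day 7 replicate 3), Gpi1 (0.0523 without GF ICH day 7 replicate 1 and 0.0522 without GF ICH day 7 replicate 3) and, in 7 of 27 cases, Slc2a1. With the GC offset Pgm2, Pfkl and Pgm1 were called, and 9.67% of all genes. The median log2 difference was -1.56 against -1.56 over all genes.

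Whether the response to hemorrhage itself differed by condition was tested as the difference of the responses. For ABX minus SPF it gave 0 members and 0% of all genes at day 3, where 0 of 36 members had an unadjusted edgeR p under 0.05 (5.58% of all genes did), DESeq2 called 0 (4.13% of all genes) and limma voom 0 (0.125%). At day 7 it gave 0 members and 0% of all genes, and 4 of 36 members had an unadjusted edgeR p under 0.05 (12.7% of all genes did), DESeq2 called 1 (12.2% of all genes) and limma voom 0 (0.0683%). For GF minus SPF it gave 0 members and 0% of all genes at day 3, where 1 of 36 members had an unadjusted edgeR p under 0.05 (5.68% of all genes did), DESeq2 called 0 (3.12% of all genes) and limma voom 0 (0%). At day 7 it gave 4, all lower in GF, against 0.285% of all genes higher and 6.76% lower: Aldoa (-4.29 ± 0.82 SE, edgeR adjusted p = 0.00410), Pfkl (-9.37 ± 1.99 SE, edgeR adjusted p = 0.00804), Pgm2 (-7.85 ± 2.08 SE, edgeR adjusted p = 0.0254) and Eno1 (-2.73 ± 0.74 SE, edgeR adjusted p = 0.0284). Pgm2 alone was called with the GC offset. Leaving out 1 library ended the call for Pgm2 (adjusted p = 0.0673 without SPF sham replicate 1, 0.0781 without SPF sham replicate 2, 0.0965 without SPF sham replicate 3, 0.0594 without SPF ICH day 7 replicate 3 and 0.0559 without GF ICH day 7 replicate 3). It did so for Eno1 too (0.0751 without SPF sham replicate 1, 0.106 without SPF sham replicate 3, 0.0532 without SPF ICH day 7 replicate 2, 0.0703 without SPF ICH day 7 replicate 3, 0.0516 without GF sham replicate 1, 0.0545 without GF ICH day 7 replicate 2 and 0.0617 without GF ICH day 7 replicate 3).

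Some members are neighbours on a chromosome. Slc2a5 and Eno1 lie 92.55 kb apart on chromosome 4, and at day 3 in SPF and ABX all libraries of Slc2a5 were below sham and all of Eno1 above it. Tpi1 lies between Eno2, 40.91 kb away, and Gapdh, 347.4 kb away, on chromosome 6, and of these Tpi1 and Gapdh were above sham in all SPF and ABX day 3 libraries.

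Other genes of the same pathways were tested too, and on the day 3 average 1.04% of all genes rose and 0.267% fell. Of 27 further glycolysis and pyruvate genes in the table, 19 were tested and 0 passed on the day 3 average, the same held for 6 tested of 7 further pentose phosphate genes, and of 25 further hypoxia genes 23 were tested and 1 rose (Pfkfb1 is in the glycolysis and the hypoxia list). That was Anxa2, which encodes annexin A2, a membrane-binding protein, and stood at 2.80, 1.42 and 4.49 CPM in SPF sham and 136, 174 and 167 at day 3, with an average log2 fold change of 5.47 ± 0.84 SE, edgeR adjusted p = 0.000508. At day 7 on the average it also rose (5.22 ± 0.83 SE, edgeR adjusted p = 0.000297), as did Bnip3l, a mitophagy receptor related to Bnip3 (0.75 ± 0.27 SE, edgeR adjusted p = 0.0490). In the same comparison 7 of the 23 hypoxia genes fell, where 16.5% of all genes did: Egln1 and Egln2, prolyl hydroxylases that mark HIF1A for degradation, Hif1an, which hydroxylates it at another site, Arnt, its binding partner, and Mxi1, Car12 and Ddit4. Egln2 had a log2 fold change of -4.99 ± 1.15 SE, edgeR adjusted p = 0.00568, and Hif1an -5.98 ± 1.45 SE, edgeR adjusted p = 0.00773. Arnt went from 254, 38.3 and 4.12 CPM in GF sham to 0.0842, 0.0376 and 0 at GF day 7, and in SPF from 2.62, 3.24 and 26.2 to 18.3, 15.8 and 7.97 CPM. The difference between these responses was -11.56 ± 2.59 SE, edgeR adjusted p = 0.0114.

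Of the 19 further glycolysis genes tested, 4 fell on the day 7 average, Slc16a3, Galm, Pfkfb2 and Pdp1, and 0 rose, against 16.5% and 3.72% of all genes. Slc16a3, the lactate exporter MCT4, stood at 15.4, 33.1 and 0.358 CPM in SPF sham, 47.2, 76.5 and 128 at day 3 and 13.2, 21.2 and 56.7 at day 7. In GF it stood at 266, 0.305 and 30.7 CPM in sham, 47.2, 62.9 and 124 at day 3 and 0.126, 0.207 and 0 at day 7. Its day 7 average was -3.96 ± 0.96 SE, edgeR adjusted p = 0.00763, and the GF response was lower than the SPF response (-10.67 ± 2.5001 SE, edgeR adjusted p = 0.0145). Of the 6 tested in the pentose phosphate list, Prps1 (1.35 ± 0.46 SE, edgeR adjusted p = 0.0410) and Rpe (1.89 ± 0.59 SE, edgeR adjusted p = 0.0287) rose on the day 7 average, where 3.72% of all genes did. Pgls, which opens the lactone made by G6pdx, fell in GF at day 7 (-8.96 ± 1.52 SE, edgeR adjusted p = 0.000629), where 12.7% of all genes did. These lists share the GF ICH day 7 libraries and their detection and GC values with the members.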

How the data were processed

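RNA of sorted microglia was amplified with a SMART-Seq kit for low input and sequenced as paired reads of 150 bases, per the labels' protocols. The deposited table holds whole-number counts per gene, made by the authors; StringTie 1.3.4d, HISAT2 2.0.4, cutadapt 1.9 and edgeR, with the mm10 build, are listed in the submitters' processing notes. The annotation, the strand setting and the treatment of reads that map to several genes are not given in the sources used here. Libraries held 41664864 to 79090595 counts. Of 56691 identifiers, 52073 had a symbol in GENCODE M21 (GRCm38), and the other 4618 held 1.269% of counts.

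Counts were tested with edgeR 4.0.16 (R 4.3.3): expression filter by group (17573 genes, 99.94% of counts), TMM factors (0.476 to 1.31), a robust quasi-likelihood fit over all 27 libraries with 9 groups of 3, 21 comparisons, Benjamini-Hochberg adjustment over all genes tested in each, threshold 0.05. The average comparisons weigh SPF, ABX and GF equally. Standard errors are the log2 fold change divided by the square root of F. The common biological coefficient of variation was 1.54. Calls of single genes therefore need large changes. With changes simulated for the day 3 average over 17573 genes, 38 of 100 genes changed 4-fold and 94 of 100 changed 16-fold were recovered, with 6 false calls. The changed genes were drawn only from genes above a mean level that several members, Slc2a6, Hk1, Pdk2 and Egln3 among them, do not reach. Recovery of genes at such low levels was not measured. Levels are CPM on TMM-scaled library sizes. Shares of isozymes used counts per kilobase of the APPRIS principal transcript and 14 two-sided exact permutation tests stratified by condition (scipy 1.17.1). Similar genes were found with blastn 2.17.0 (at least 90% identity over 300 bases) among transcripts, and promoters come from RefSeq (GRCm38.p6).

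The members, the lists of further pathway genes and the markers were chosen with earlier results of these data known. Named are all members by level, every member past the threshold in a comparison with up to 3 more of unadjusted p under 0.05, and up to 6 further pathway genes per list past the threshold. Alternatives were DESeq2 1.42.0, limma 3.58.1 voom with quality weights, DESeq2 size factors, no filter, a replicate block, an offset fitted to GC content (a spline with 6 degrees of freedom), leaving out the 7 libraries with fewer than 12000 genes detected, and leaving out each library. The average without GF and the background of genes of at least 100 CPM were added after seeing the data.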

Additional observations from a re-analysis of the deposited data

Results flagged for a closer look

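For 4 members the day 7 response to hemorrhage differed between GF and SPF by the test of the difference itself, in log2 units and with edgeR adjusted p. Aldoa (aldolase A) differed by -4.29 (adjusted p = 0.00410), and stood below sham in GF and above sham in SPF. Eno1 (enolase 1) differed by -2.73 (adjusted p = 0.0284). Pfkl (liver phosphofructokinase) differed by -9.37 (adjusted p = 0.00804) and Pgm2 (a phosphoglucomutase) by -7.85 (adjusted p = 0.0254), both from GF day 7 levels under 1 CPM, so the size of these differences is uncertain. With the GC offset the values were -1.83 (adjusted p = 0.198) for Aldoa, -0.49 (adjusted p = 0.695) for Eno1, -6.49 (adjusted p = 0.0507) for Pfkl and -8.67 (adjusted p = 0.0272) for Pgm2. The Spearman correlation of this difference with GC content over 1649 abundant genes was -0.62 before and 0.24 after the offset, which thus turned the trend. All 3 GF day 7 libraries had fewer than 12000 genes detected and a GC contrast of -2.78 to -1.68, and the part of these in the 4 differences was not tested.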

How the results depend on the processing

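The direction of the 5 day 3 calls held under every alternative run. The number of members called moved with the tool, and the cause was not tested. Some counts below have no share of all genes beside them, here or above. Such counts do not tell a change in the members from a change in calls over all genes. DESeq2 called 5 in SPF day 3 against sham, 1 in SPF day 7, 2 in ABX day 3, 16 in ABX day 7, 2 in GF day 3, 21 in GF day 7, 9 on the day 3 average and 20 on the day 7 average. It called 11 from day 3 to day 7 in ABX and 22 in GF, 2 between GF and SPF in sham, 1 and 10 between ABX and SPF at days 3 and 7, and 14 between GF and SPF at day 7. For the differences of the day 7 responses it called 1 for ABX minus SPF and 13 for GF minus SPF. DESeq2 called many more genes in all: 31.3% of genes in ABX day 7, 43.6% in GF day 7, 9.43% and 42.3% on the day 3 and day 7 averages, and 43.1% from day 3 to day 7 in GF, against 0.945%, 14.4%, 1.3%, 20.2% and 15.3% with edgeR. Limma voom called 8 in SPF day 3, 10 in ABX day 3, 3 in ABX day 7, 4 in GF day 7, 13 on the day 3 average, 1 and 18 from day 3 to day 7 in ABX and GF, and 1 between ABX and SPF at day 7. DESeq2 size factors in edgeR gave 0 in ABX day 7, 1 from day 3 to day 7 in ABX and 8 for the GF minus SPF difference at day 7. Without the filter ABX day 7 had 0. The GC offset gave 5 in GF day 7, 4 from day 3 to day 7 in GF, 3 between GF and SPF at day 7 and 1 for their difference of responses. With it 4 log2 values changed sign: Eno1 in GF day 7 to 0.14, Ldhb in GF day 7 to 0.63 and from day 3 to day 7 to 0.76, and Eno1 between GF and SPF at day 7 to 0.0722. Without the 7 libraries of few detected genes the counts were 10 in SPF day 3, 2 in SPF day 7 and 10 in ABX day 3. Fewer samples then enter, and ABX ICH day 7 and GF sham keep replicate 3 alone, so counts for comparisons that use these groups are not given. Comparisons with GF day 7 gave no value, since all 3 of its libraries fall out. The average over SPF and ABX called 3 at day 7.

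Leaving out 1 library at a time gave 0 to 1 members in SPF day 3, 0 to 4 in ABX day 7, 7 to 11 in GF day 7, 4 to 7 on the day 3 average, 9 to 13 on the day 7 average, 0 to 4 and 7 to 13 from day 3 to day 7 in ABX and GF, 5 to 8 between GF and SPF at day 7 and 2 to 7 for their difference. The shares of all genes called in these fits are not given here. For shares, in percentage points, the Hk2 difference ranged from -6.78 to 2.74 at day 3 and 22.8 to 39.3 at day 7, the Pfkp difference at day 3 from -7.30 to 1.29, the Aldoc difference at day 3 from -7.49 to -3.03, the Eno2 difference at day 3 from -0.121 to 0.0425 and the Slc2a5 difference at day 7 from -24.8 to -14.0. The Hk2 share difference at day 3 was 1.51 points with raw counts and 0.27 without the 7 libraries.

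Libraries of the same replicate number showed little correlation: in 15 comparisons the correlation of same-numbered deviations ran from -0.106 to 0.0891, and 19 of 45 libraries correlated best with their own number. Whether the numbers mark libraries handled together cannot be told from these values. The fit with a replicate block called 0 members in ABX day 7, and its other counts were within 1.5 times of those without the block. Correlations between libraries of a group were 0.626 to 0.874. Members at 0 counts in a library of few detected genes may have been missed there. Total counts were 53873467 to 72415932 in GF ICH day 7, and 44279690 and 65806820 in ABX ICH day 7 replicates 1 and 2. GF sham replicates 1 and 2 held 47984762 and 41664864, where all libraries spanned 41664864 to 79090595. Why few genes were detected in these libraries was not tested.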
